A study of Homo sapiens with 4 samples.

Results

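The integrated stress response and the unfolded protein response were described here through 44 genes, all present among the 35211 genes of the deposited table. The members were chosen by name as ATF4 targets, amino acid response genes and endoplasmic reticulum (ER) stress genes, and the rule uses no measured value. They were, however, chosen with earlier results of these data known, so the list is not independent of the data. RNA was sequenced from the established human prostate cancer lines DU145 and PC3 after ribosomal RNA had been removed. Each line received either a negative control plasmid or one that overexpresses circ0003553, a circular RNA. In the sample titles the plasmids carry the gene name RCAN3. The groups were DU145 with control, DU145 with circ0003553, PC3 with control and PC3 with circ0003553, with 1 library each. All 4 were transfected, so untransfected cells are not part of any comparison, and neither the vector nor the time after transfection is stated in the labels.

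In the integrated stress response, kinases that sense ER stress, lack of amino acids, double-stranded RNA or lack of heme phosphorylate the translation factor eIF2-alpha. General translation then slows while the transcription factor ATF4 is made, and ATF4 switches on genes for amino acid synthesis, amino acid uptake and tRNA charging. In the unfolded protein response, the ER membrane sensors PERK, IRE1 and ATF6 raise chaperones and degradation factors, and PERK is also one of the eIF2-alpha kinases, so the responses share an arm. Cancer cells are known to use both to cope with nutrient shortage and secretory load.

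The libraries held 33438509 to 39488890 counts. Of the counts from 1 to 20, 70.3% to 75.3% were even, so a read pair appears to have often been counted as 2, and every counting interval below was therefore computed from halved counts. Mitochondrially encoded genes took 6.28% of counts in the DU145 control and 4.96% in the DU145 circ0003553 library, and 6.88% and 6.34% in those of PC3. KRT8, KRT18 and EPCAM, markers of epithelial cells, were abundant in both lines, with the lowest at 2732 counts. CTNNA1, which is deleted in PC3, had 15074 and 15131 counts in the DU145 pair (control, then circ0003553) and 139 and 212 in the PC3 pair. The 8 measured markers of leukocytes, fibroblasts and endothelium summed to 93.0 and 125 RPKM (reads per kilobase of exon, scaled to library size) in DU145 and 201 and 241 in PC3. Without CD68, whose exons lie 81.7% within another annotated gene, the sums were 0.644 and 0.506 in DU145 and 5.83 and 5.94 in PC3. PTPRC, the pan-leukocyte marker, had 0 counts in both DU145 libraries. The part of these shares and markers in the results below was not tested.

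Expressed per length, the stress response genes were well above the typical gene in every library. Their median was 11.7 and 15.0 RPKM in the DU145 control and circ0003553 libraries and 11.1 and 11.03 in those of PC3, beside 2.20 to 2.40 for the 21731 genes tested. CALR, an ER chaperone that binds calcium and glycoproteins, stood highest, from 409 to 947 RPKM. PDIA4 and PDIA6, which form and rearrange disulfide bonds, lay at 141 to 172 and 80.4 to 126 RPKM. Between them stood PPP1R15A at 52.8 and 155 RPKM in DU145 and 96.4 and 134 in PC3, and ATF4 followed at 68.8 to 132. By the median over the 4 libraries, the lowest were GDF15, a secreted stress cytokine, at 0.252 to 0.51 RPKM, and CHAC1, which degrades glutathione, at 0.145 to 1.32. The lowest single values were those of VLDLR in PC3, at 0.115 and 0.122 RPKM.

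**Figure D1:**
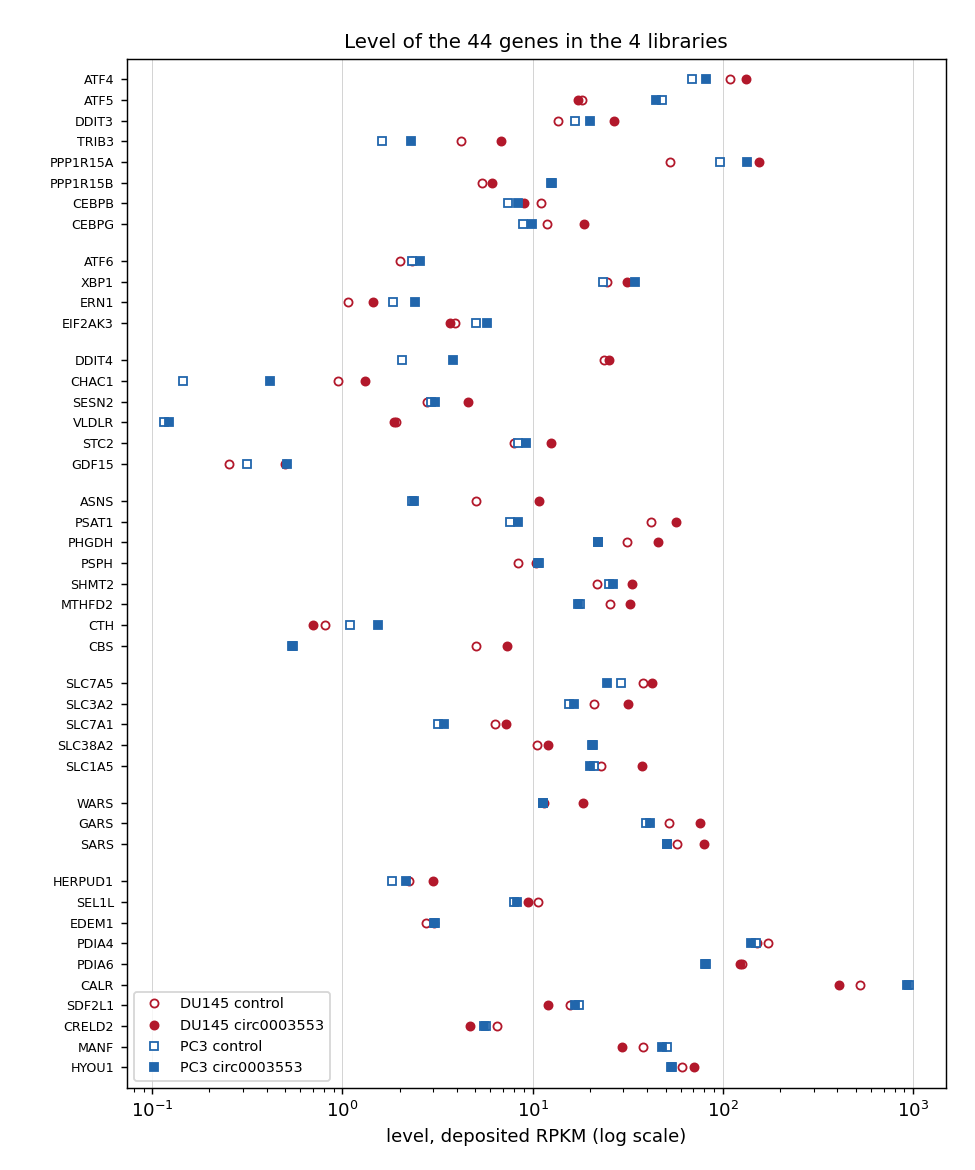
Deposited RPKM of the 44 genes in the 4 libraries on a log axis, with DU145 as circles, PC3 as squares, control open and circ0003553 filled. CALR lies highest, at 409 to 947 RPKM, and the DU145 control of PPP1R15A, at 52.8, lies below its other 3 libraries, at 96.4 to 155.

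With the circ0003553 plasmid, every group of members except ER folding had a median ratio above 1 in DU145. In PC3 the medians of the amino acid and synthetase groups lay near 1. Those of the sensors, regulators and effectors lay above 1 there too, at 0.26, 0.19 and 0.11 on the log2 scale. Most ER folding members were level or lower in both lines. Each line offers 1 library against 1, so the ratios within a line have no test. They are ratios of counts scaled by library total and TMM factor, and genes with at least 50 counts over the 2 libraries of a line were counted when 1.5-fold apart. The counting intervals given below hold no spread between cultures and narrow as counts grow. The share of all genes whose interval excludes 1 was not computed. In DU145, 12 of 44 members (27.3%) were at least 1.5-fold higher with circ0003553, where percent called among all genes was 4.47, and 0 were 1.5-fold lower, against 4.75. In PC3, 2 of 43 members (4.65%) were 1.5-fold higher, against 3.5 percent of all genes, and 0 were lower, against 2.4. The median log2 ratio of the members was 0.36 in DU145 and 0.04 in PC3, beside 0.01 and 0.00 over all genes counted. The DU145 ratio exceeded the PC3 ratio for 31 of 43 members (72.1%), as it did for 50.9% of all genes. This difference between lines was not tested, since an interaction of line and plasmid leaves no residual degree of freedom. The share of mitochondrial counts also differed more between the DU145 libraries than between those of PC3.

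**Figure D2:**
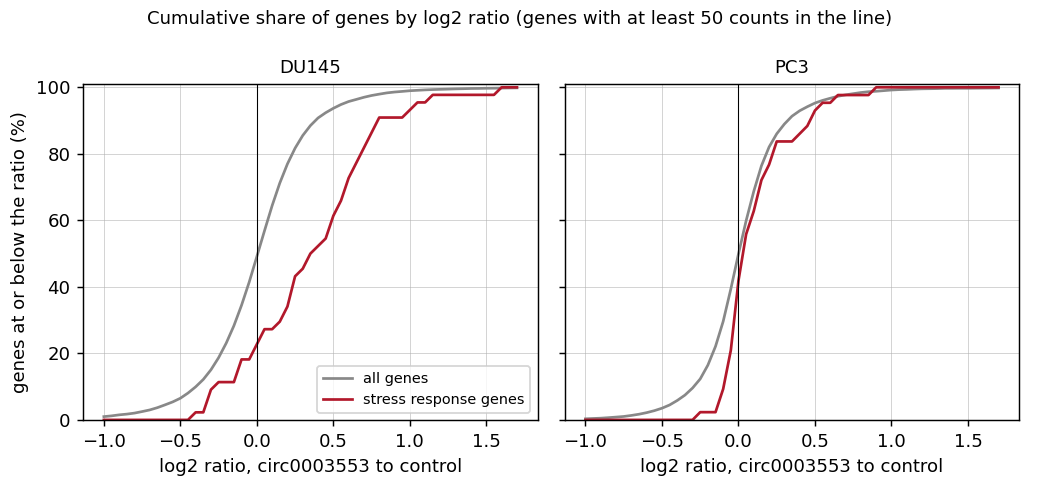
Share of genes (%) at or below each log2 ratio of circ0003553 to control, for the members (red) and all genes with at least 50 counts in the line (grey). In DU145 the members' curve runs to the right of that of all genes, with medians of 0.36 and 0.01, and in PC3 the medians are 0.04 and 0.00, while 9.30% of members and 29.6% of genes lie at or below -0.1.

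Across both lines, edgeR's quasi-likelihood test, with the cell line as a block and Benjamini-Hochberg adjustment over 21731 genes, called 1 of 44 members higher (2.27%) and 0 lower. Among all genes 0.396 percent were called higher and 0.069 percent lower. At an unadjusted p under 0.05, 22 members were higher and 1 was lower, as were 1057 and 872 of the 21731 genes. DESeq2 called 1 member higher and 0 lower, beside 49 and 13 of all genes. The 2 methods called different members, PPP1R15A by edgeR and XBP1 by DESeq2. At an unadjusted p under 0.05 DESeq2 had 5 and 0 members beside 290 and 211 genes. The median fitted log2 change of the members was 0.26, beside 0.00 over all genes tested. Each plasmid had 2 libraries, 1 per line, so neither line has a replicate library of either plasmid. The p-values therefore do not measure a spread between replicate cultures. The 1 residual degree of freedom in edgeR's fit is the difference in response between the lines. The rest of its error, with a prior of 13.4 degrees of freedom, is a spread shared across genes. In bulk RNA, fewer cells responding and a smaller response per cell cannot be told apart.

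**Figure D3:**
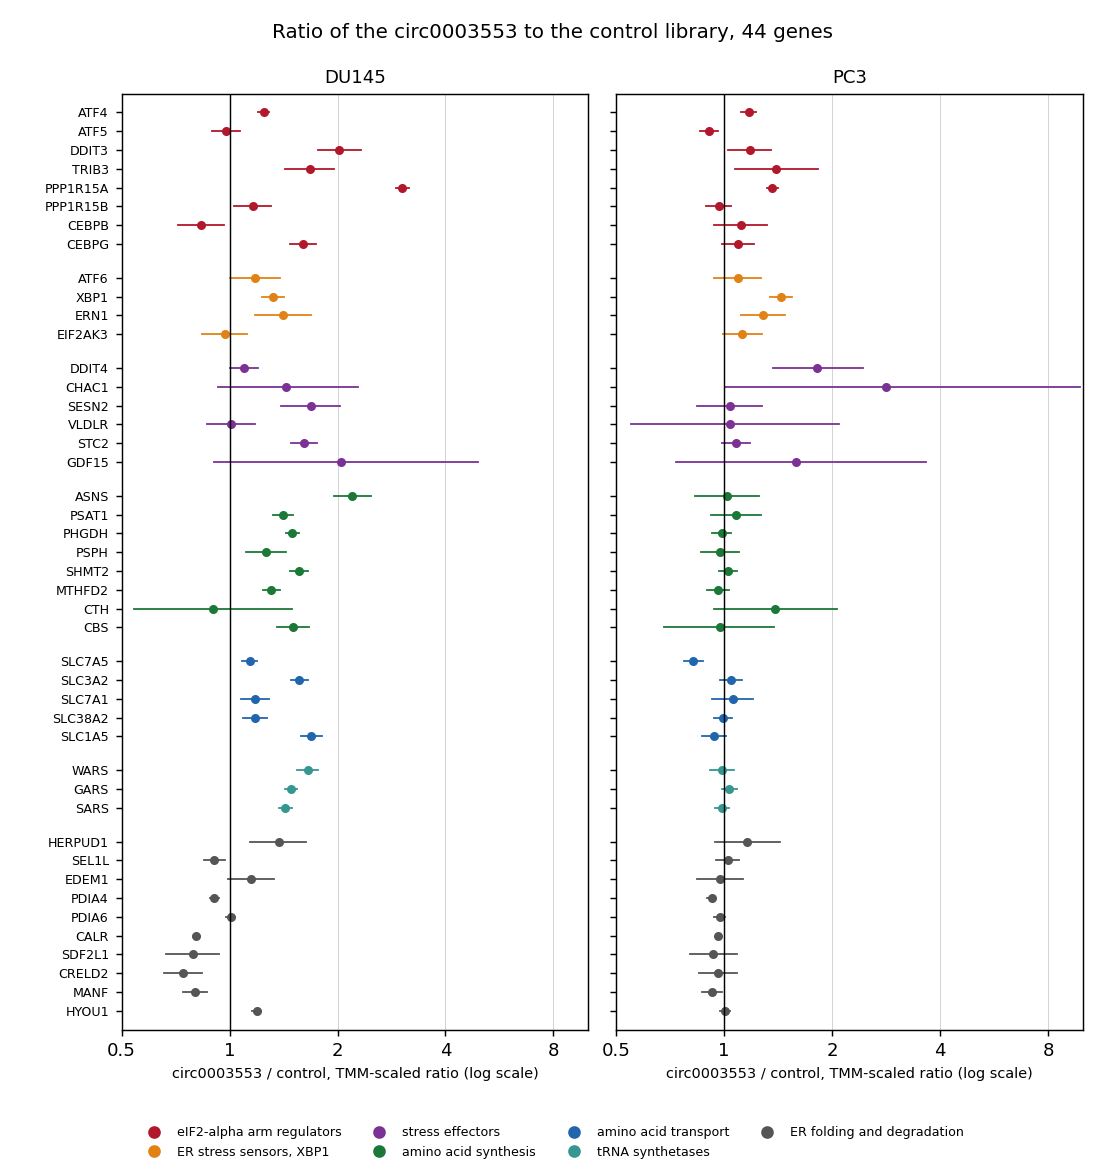
Ratio of the circ0003553 to the control library for each of the 44 genes in DU145 (left) and PC3 (right) on a log axis, with 95% exact counting intervals from halved counts and colours for the 7 groups of roles. PPP1R15A at 3.03 and ASNS at 2.20 lead in DU145, while the amino acid and tRNA synthetase genes of PC3 run from 0.821 for SLC7A5 to 1.38 for CTH.

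The regulators of the eIF2-alpha arm held the 1 member that passed the test. PPP1R15A (GADD34) is the stress-induced subunit that directs a phosphatase to eIF2-alpha and so ends the response, encoded at chr19:48872392-48876057 (plus strand, hg38). It had 6215 counts in the DU145 control and 17523 in the DU145 circ0003553 library, and 9975 and 16310 in those of PC3. Both circ0003553 libraries were above both controls. The ratio was 3.03 in DU145 (interval 2.91 to 3.16) and 1.36 in PC3 (1.31 to 1.41). PPP1R15A rose 2.03-fold across the lines (log2 change 1.02 ± 0.18 SE, n = 2 libraries per plasmid, edgeR adjusted p = 0.0202). It kept its call in 3 of 9 alternatives, and its adjusted p ranged from 0.00838 to 0.9999 over them. PPP1R15B, the constitutive subunit of the same phosphatase, had 1083 and 1171 counts in the DU145 pair and 2222 and 2578 in the PC3 pair, ratios of 1.16 and 0.966.

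DDIT3 (CHOP), a transcription factor linked to cell death under prolonged stress, and TRIB3, a pseudokinase that restrains ATF4, were next among the regulators. DDIT3 had 654 and 1233 counts in the DU145 pair and 710 and 1003 in the PC3 pair, ratios of 2.02 (1.77 to 2.32) and 1.18 (1.03 to 1.35). Its fitted log2 change of 0.63 ± 0.16 missed the threshold (edgeR adjusted p = 0.125). DDIT3 shares 28.0% of its exon bases with MARS on the other strand, and reads of the pair cannot be told apart in these counts. TRIB3 had 547 and 851 counts in the DU145 pair and 186 and 312 in the PC3 pair, ratios of 1.67 (1.43 to 1.95) and 1.40 (1.07 to 1.83). Its DU145 libraries lay above those of PC3, and within each line the circ0003553 library was the higher (fitted 0.63 ± 0.14, edgeR adjusted p = 0.0874).

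ATF4 itself, whose protein is set largely at translation, had RNA ratios closer to 1. It had 10480 and 12140 counts in the DU145 pair and 5786 and 8136 in the PC3 pair, ratios of 1.24 (1.2 to 1.29) and 1.17 (1.12 to 1.23), with a fitted log2 change of 0.27 ± 0.10 (edgeR adjusted p = 0.387). CEBPG, a partner of ATF4 on DNA, had 2002 and 2987 counts in the DU145 pair and 1314 and 1726 in the PC3 pair, ratios of 1.60 and 1.09. The remaining transcription factors lay near or below 1 in at least 1 line. CEBPB, another C/EBP factor, had 826 and 640 counts in DU145, a ratio of 0.832 (0.717 to 0.965), and 488 and 651 in PC3, a ratio of 1.11 (0.940 to 1.32). ATF5, which is related to ATF4, had 2051 and 1872 counts in the DU145 pair and 4740 and 5169 in the PC3 pair, ratios of 0.98 and 0.908. ATF5 shares 21.2% of its exon bases with NUP62 on the other strand. Over the 8 regulators, the median log2 ratio was 0.50 for DU145 and 0.19 for PC3.

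The ER stress sensors and XBP1 had similar ratios in the lines, with medians on the log2 scale of 0.32 in DU145 against 0.26 in PC3 and no call among the 4. XBP1, the factor that IRE1 activates by splicing its RNA, had 2830 and 3478 counts in the DU145 pair and 2382 and 4119 in the PC3 pair. Both circ0003553 libraries were above both controls. The ratios were 1.32 (1.23 to 1.42) and 1.44 (1.34 to 1.55), and the fitted log2 change was 0.46 ± 0.10 (edgeR adjusted p = 0.0602, 0.0403 by DESeq2). Gene counts do not separate the spliced from the unspliced form. ERN1, which encodes IRE1, had 440 and 577 counts in the DU145 pair and 672 and 1033 in the PC3 pair, ratios of 1.41 and 1.28. EIF2AK3, which encodes PERK, had ratios of 0.971 and 1.12, and ATF6, the sensor cut in the Golgi, 1.18 and 1.09.

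Among the 6 stress effectors, the median log2 ratio was 0.60 in DU145, and 0 were called. In PC3 it was 0.11 over the 5 of them with enough counts. SESN2, which holds back mTORC1 when leucine is short, had 367 and 576 counts in the DU145 pair and 338 and 420 in the PC3 pair, ratios of 1.69 (1.39 to 2.03) and 1.03 (0.841 to 1.27). STC2, a secreted glycoprotein, had 1869 and 2799 counts in the DU145 pair and 1715 and 2228 in the PC3 pair, ratios of 1.61 and 1.08. For both genes the DU145 circ0003553 library was the highest of the 4. DDIT4, an mTORC1 inhibitor, had its higher ratio in PC3. It had 1854 and 1892 counts in DU145, a ratio of 1.10, and 142 and 310 in PC3, a ratio of 1.82 (1.36 to 2.44). DDIT4 shares 41.2% of its exon bases with the antisense gene RP11-442H21.2, which had 1489, 1489, 121 and 246 counts in the same order of libraries, so its counts are uncertain.

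The other effectors were thinly counted or level. GDF15 had 20 and 38 counts in the DU145 pair and 22 and 42 in the PC3 pair, ratios of 2.04 and 1.59 whose intervals of 0.903 to 4.91 and 0.733 to 3.65 hold 1. CHAC1 had 74 and 99 counts in the DU145 pair, a ratio of 1.44 (0.930 to 2.28). It had only 10 and 34 in the PC3 pair, a ratio of 2.83 (1.003 to 9.81). The PC3 pair fell under the minimum of 50, so CHAC1 was left out of the PC3 counts. VLDLR, a lipoprotein receptor, had 679 and 639 counts in the DU145 pair and 36 and 45 in the PC3 pair, ratios of 1.01 and 1.04.

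Amino acid synthesis genes mostly stood higher with circ0003553 in DU145 and mostly near the control in PC3. Of the 8, 7 had a DU145 interval above 1 and 0 an interval below, while in PC3 all 8 intervals held 1. By ratio alone, 7 lay above 1 in DU145 and 4 in PC3, beside 50.9% and 50.1% of all genes counted. The group's median log2 ratio was 0.54 in DU145 and -0.00 in PC3, and 0 were called across lines. ASNS, which makes asparagine from aspartate and is a standard readout of ATF4, is encoded at chr7:97852118-97872542 (minus strand, hg38). It had 858 and 1757 counts in the DU145 pair and 344 and 420 in the PC3 pair. The DU145 circ0003553 library was the highest, and the PC3 libraries lay close to each other, with ratios of 2.20 (1.96 to 2.48) and 1.02 (0.827 to 1.25) and a fitted log2 change of 0.65 ± 0.19 (edgeR adjusted p = 0.259).

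Each enzyme of serine synthesis likewise had its higher ratio in DU145. PHGDH, its first enzyme, had 6694 and 9337 counts in the DU145 pair and 4174 and 4928 in the PC3 pair, ratios of 1.50 (1.43 to 1.57) and 0.983 (0.927 to 1.04). PSAT1, the second, had 3473 and 4552 counts in the DU145 pair and 556 and 720 in the PC3 pair, ratios of 1.41 and 1.08. PSPH, the last, had 885 and 1043 against 999 and 1165, ratios of 1.27 and 0.971. From serine the mitochondrial enzymes SHMT2 and MTHFD2 pass carbon to folate. SHMT2 had 4035 and 5863 counts in the DU145 pair and 4091 and 5046 in the PC3 pair, ratios of 1.56 and 1.03, and for MTHFD2 the counts were 4744 and 5766, and 2890 and 3331, ratios of 1.31 and 0.960. MTHFD2 shares 27.2% of its exon bases with SLC4A5 on the other strand. Homocysteine is turned into cysteine by CBS and CTH. CBS had 1306 and 1824 counts in the DU145 pair and 125 and 146 in the PC3 pair, ratios of 1.50 and 0.973, but its near-identical copy CBSL took 1137, 1553, 80 and 88 counts, so the split between them is uncertain. CTH had 74 and 62 counts in the DU145 pair and 88 and 146 in the PC3 pair, and its ratios of 0.900 and 1.38 had intervals that hold 1 in both lines.

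Amino acid transporters had DU145 intervals above 1 in 5 of 5, with a median log2 ratio of 0.24, and PC3 ratios of 0.821 to 1.06, with a median of -0.01. Of all genes counted, 50.9% had a DU145 ratio above 1. SLC1A5, which brings in glutamine, had 2884 and 4540 counts in the DU145 pair and 2356 and 2651 in the PC3 pair. Its ratios were 1.69 (1.58 to 1.81) and 0.937 (0.866 to 1.01). SLC1A5 shares 23.4% of its exon bases with the antisense gene CTB-147N14.6, which had 556, 820, 362 and 576 counts in the same order of libraries. SLC3A2, the heavy chain that places several amino acid exchangers in the membrane, had 4130 and 6024 counts in the DU145 pair and 2697 and 3380 in the PC3 pair, ratios of 1.57 and 1.04. Its partner SLC7A5, the light chain that carries leucine and other large neutral amino acids, had ratios on opposite sides of 1. SLC7A5 had 6898 and 7306 counts in the DU145 pair and 4652 and 4585 in the PC3 pair. Its ratio was above 1 in DU145, at 1.14 (1.09 to 1.19), and below 1 in PC3, at 0.821 (0.775 to 0.870), and it was the 1 member whose intervals lay on opposite sides. Without regard to intervals, ratios lay on opposite sides of 1 for 16 of 43 members, beside 7004 of 15868 genes. SLC7A1, the arginine and lysine carrier, and SLC38A2, a carrier of small neutral amino acids, each had a DU145 ratio of 1.18, with 1.06 and 0.991 in PC3.

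Each of the 3 aminoacyl-tRNA synthetases, which load tRNAs with tryptophan, glycine and serine, had a DU145 interval above 1 and a PC3 interval that held 1. A DU145 ratio above 1 was found for 50.9% of all genes counted. WARS had 2790 and 4286 counts in the DU145 pair and 2406 and 2856 in the PC3 pair, ratios of 1.65 (1.54 to 1.77) and 0.988 (0.915 to 1.07). GARS had 8262 and 11423 against 5494 and 6823, ratios of 1.49 and 1.03, and SARS 8365 and 11145 against 6543 and 7740, ratios of 1.43 and 0.985. In all 3 the DU145 circ0003553 library was the highest of the 4. The signs of the PC3 medians of the synthesis, transport and synthetase groups depend on scaling: with total counts alone they were 0.024, 0.012 and 0.0074.

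ER folding and degradation genes did not stand higher with circ0003553 as a group. Of the 10, 6 had a DU145 interval below 1, 2 above and 2 holding 1, and in PC3 3 lay below 1 and 7 held 1. By ratio alone, 4 of the 10 lay above 1 in DU145 and 3 in PC3, beside 50.9% and 50.1% of all genes counted. The median log2 ratios were -0.14 and -0.05, and 0 were called across lines. CRELD2 and MANF, small proteins secreted under ER stress, and SDF2L1, a partner of the ER chaperone HSPA5, had the lowest DU145 ratios. CRELD2 had 1272 and 879 counts in the DU145 pair and 982 and 1132 in the PC3 pair, ratios of 0.742 (0.657 to 0.840) and 0.960 (0.849 to 1.09). SDF2L1 had 659 and 484 against 645 and 723, ratios of 0.789 and 0.933, and MANF 3050 and 2273 against 3602 and 4001, ratios of 0.8 and 0.925. For each of these genes the DU145 circ0003553 library had the lowest count of the 4. CALR had 54066 and 40504 counts in the DU145 pair and 85969 and 99442 in the PC3 pair, ratios of 0.805 (0.790 to 0.819) and 0.963 (0.951 to 0.976). None of these 4 passed the test, the fitted log2 changes being -0.24, -0.22, -0.22 and -0.18 in the order CRELD2, SDF2L1, MANF and CALR (edgeR adjusted p from 0.56 to 0.717).

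The rest of the folding group lay closer to 1. PDIA4 had 21438 and 18105 counts in the DU145 pair and 16476 and 18248 in the PC3 pair, ratios of 0.907 and 0.922. PDIA6, which shares 25.2% of its exon bases with ATP6V1C2 on the other strand, had ratios of 1.01 and 0.971. SEL1L, the scaffold of an ER-associated degradation complex, had 3893 and 3285 counts in the DU145 pair and 2545 and 3129 in the PC3 pair, ratios of 0.906 and 1.02. EDEM1, which marks misfolded glycoproteins for disposal, had ratios of 1.15 and 0.971. HERPUD1, another degradation component, stood with the higher genes, at 439 and 560 counts in the DU145 pair and 316 and 440 in the PC3 pair, ratios of 1.37 (1.14 to 1.64) and 1.16 (0.941 to 1.43). HYOU1, a large ER chaperone, had 17870 and 19793 against 13710 and 16517, ratios of 1.19 and 1.003.

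The promoters of the members were read from RefSeq on GRCh38.p14, for the 42 of 44 members that matched. Each ran from 250 bases before to 50 after a RefSeq start. That start can lie well inside the gene as counted, as for SLC1A5, SLC3A2 and PDIA6. Short motifs of 4 kinds were searched on both strands. A member was counted when any of its promoters held the motif, while the shares over all promoters are per promoter. Since the members were chosen by name as ATF4 targets and ER stress genes, their counts are not independent of that choice. TGATGNAA, a form of the C/EBP-ATF response element that ATF4 binds with C/EBP partners, was found in 9 of 42 members and in 3.62% of 35116 promoters. The ER stress response element, CCAAT and CCACG with 9 bases between, was in 4 members and 0.0769% of promoters. Its second form, ATTGG and CCACG with 1 base between, was in 3 members and 0.0541%, and TGACGTGG, the unfolded protein response element, in 1 member and 0.729%. HYOU1 held the last of these overlapping a second-form match, and HERPUD1 held both the C/EBP-ATF element and the second form. The 9 members with the C/EBP-ATF element were PPP1R15B, CEBPG, CHAC1, ASNS, SLC3A2, SLC7A1, SLC1A5, GARS and HERPUD1. All 9 had DU145 ratios above 1, from 1.16 to 2.20, with a median log2 ratio of 0.57, and the 8 of them counted in PC3 ran from 0.937 to 1.16, with a median of 0.05. The 7 with either ER stress element were XBP1, PDIA6, CALR, CRELD2, HERPUD1, SDF2L1 and HYOU1, from 0.742 to 1.37 in DU145 and 0.933 to 1.44 in PC3, with medians of 0.01 and -0.04. A match is a stretch of letters and not a measured binding site, and members without either element (27) had medians of 0.32 and 0.06. The DU145 ratio was above 1 in 20 of these 27, and in 4 of the 7 with an ER stress element.

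Windows around the C/EBP-ATF element are shown for 4 of the genes with it that stood high in DU145, with the match in capitals, read along the gene's strand. They lie at chr7:97872409-97872536 on the minus strand (ASNS), chr19:46784844-46784971 on the minus strand (SLC1A5), chr11:62881676-62881748 on the plus strand (SLC3A2) and chr7:30594785-30594912 on the plus strand (GARS, listed by RefSeq as GARS1). Where the element lies on the opposite strand, as in SLC3A2 and GARS, the capitals show its reverse complement. As counted, SLC1A5 spans chr19:46774883-46788594 and SLC3A2 chr11:62856102-62888875, so their windows lie at starts well inside the genes. Not shown are CEBPG, CHAC1, HERPUD1, SLC7A1 and PPP1R15B, which also hold the C/EBP-ATF element. Their DU145 ratios were 1.60, 1.44, 1.37, 1.18 and 1.16.
ASNS: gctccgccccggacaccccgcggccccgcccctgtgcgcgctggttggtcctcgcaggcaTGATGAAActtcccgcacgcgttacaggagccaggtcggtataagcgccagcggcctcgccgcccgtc
SLC1A5: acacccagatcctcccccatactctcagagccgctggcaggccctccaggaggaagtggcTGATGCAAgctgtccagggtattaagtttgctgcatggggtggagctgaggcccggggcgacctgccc
SLC3A2: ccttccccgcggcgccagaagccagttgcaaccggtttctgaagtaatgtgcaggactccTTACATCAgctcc
GARS: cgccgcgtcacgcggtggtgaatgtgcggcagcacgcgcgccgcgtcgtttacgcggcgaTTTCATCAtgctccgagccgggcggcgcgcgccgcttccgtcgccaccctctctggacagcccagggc

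Windows around the ER stress elements are shown for 3 ER folding genes that stood low in DU145 and for XBP1, which did not, with the match in capitals. They lie at chr19:12938359-12938462 on the plus strand (CALR), chr22:49918494-49918632 on the plus strand (CRELD2), chr22:21642054-21642184 on the plus strand (SDF2L1, second form) and chr22:28800543-28800681 on the minus strand (XBP1). In CALR, CRELD2 and SDF2L1 the element reads on the opposite strand. Not shown are HERPUD1, HYOU1 and PDIA6, which also hold ER stress elements and had DU145 ratios of 1.37, 1.19 and 1.01.
CALR: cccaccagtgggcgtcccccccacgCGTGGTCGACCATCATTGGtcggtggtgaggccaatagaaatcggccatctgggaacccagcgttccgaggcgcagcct
CRELD2: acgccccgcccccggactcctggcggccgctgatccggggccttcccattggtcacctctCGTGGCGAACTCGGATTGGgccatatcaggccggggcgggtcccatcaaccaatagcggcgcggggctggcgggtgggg
SDF2L1: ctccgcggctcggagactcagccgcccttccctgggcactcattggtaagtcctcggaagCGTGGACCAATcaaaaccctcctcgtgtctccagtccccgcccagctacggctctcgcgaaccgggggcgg
XBP1: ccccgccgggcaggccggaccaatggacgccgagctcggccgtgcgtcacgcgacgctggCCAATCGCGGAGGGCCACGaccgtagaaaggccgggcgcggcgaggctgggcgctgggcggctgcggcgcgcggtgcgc

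Beyond the members, 83 other genes of the pathway were measured in 4 lists, and 1 was called higher and 0 lower across lines by edgeR, beside the same 0.396 and 0.069 percent of all genes. At an unadjusted p under 0.05, 8 were higher and 2 lower, beside the 1057 and 872 of 21731 genes. The called gene was ATF3, a stress-induced transcription factor of the ATF4 arm, with 170 and 503 counts in the DU145 pair and 174 and 570 in the PC3 pair, ratios of 3.18 and 2.73. ATF3 rose by a fitted log2 change of 1.56 ± 0.16 (edgeR adjusted p = 0.00012), and lost its call without the cell line block (0.9999) and when genes with few counts were kept (0.0640). The 18 other genes of the eIF2-alpha arm, ATF3 included, had medians on the log2 scale of 0.03 in DU145 and -0.01 in PC3, with 10 above and 8 below 0 in DU145. Among the 17 besides ATF3, the next highest was NUPR1, a stress-induced nuclear protein, at 0.52, and the lowest were OMA1, a mitochondrial protease that relays stress to this arm, at -0.65 (edgeR adjusted p = 0.245), and EIF2B3, a subunit of the eIF2 exchange factor, at -0.17. EIF2AK2 (PKR), the eIF2-alpha kinase that senses double-stranded RNA, was not called either. It had 3439 and 5035 counts in the DU145 pair and 3007 and 4435 in the PC3 pair, ratios of 1.57 and 1.23 (fitted 0.48 ± 0.11, edgeR adjusted p = 0.0858), and is named here after its values were seen.

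The other lists that concern amino acids had higher medians in DU145 than in PC3. The 17 other cytosolic synthetases had medians on the log2 scale of 0.22 in DU145 against 0.03 in PC3, with fitted log2 changes from -0.06 for HARS and -0.04 for FARSB to 0.31 for MARS and 0.32 for CARS. The 15 other amino acid and one-carbon genes had medians of 0.31 and -0.09, with ALDH1L2, a mitochondrial folate enzyme, highest at 0.63 and PCK2 at 0.30, and ALDH18A1 lowest at -0.17 and SHMT1 at -0.06. The 33 other ER genes had medians of -0.01 and 0.02, with CREB3 at 0.22 and ERO1B at 0.17, and DERL3 at -0.38 and HSP90B1, the ER form of HSP90, at -0.24. These differences between lists and between lines were not tested.

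The lines themselves differed at many of the members, as they did at many of all genes. Not called either way were 16 of 44 members, beside 7399 of 21731 genes tested. By the line term of the same edgeR fit, 19 of 44 members (43.2%) were lower in PC3 than in DU145 and 9 (20.5%) were higher, while among all genes 32.9 percent were lower and 33.1 percent higher. Lower members included 5 of 8 amino acid synthesis genes, 4 of 5 transporters, 2 of 3 synthetases, 3 of 6 effectors, 3 of 8 regulators and 2 of 10 ER folding genes. The plasmids stand in as replicates of a line here, and the lines differ in every other respect too.

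The widest gaps were in genes lower in PC3. VLDLR was 15.1-fold lower in PC3 (log2 change -3.92 ± 0.19 SE, n = 2 libraries per line, edgeR adjusted p = 1.97e-10), with 679 and 639 counts in the DU145 pair and 36 and 45 in the PC3 pair. CBS was 10.7-fold lower, subject to its copy CBSL, and DDIT4 8.08-fold lower, subject to its antisense gene. PSAT1, the second enzyme of serine synthesis, was 5.85-fold lower (-2.55 ± 0.12, edgeR adjusted p = 1.13e-10), while PSPH was not called at 0.27 ± 0.12. CHAC1 was 3.82-fold lower, ASNS 3.05-fold, TRIB3 2.65-fold and SLC7A1 1.95-fold. For ASNS the PC3 libraries, at 344 and 420 counts, lay below both DU145 libraries, at 858 and 1757.

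The 9 members higher in PC3 came from 5 of the 7 role groups, among them both sensors called. ATF5 was 2.72-fold higher in PC3 (1.44 ± 0.10, edgeR adjusted p = 8.06e-09) while ATF4 was 1.53-fold lower (-0.61 ± 0.10, edgeR adjusted p = 5.18e-05). PPP1R15B was 2.29-fold higher, CALR 2.13-fold, SLC38A2 1.93-fold, CTH 1.82-fold, ERN1 1.78-fold, MANF 1.55-fold and EIF2AK3 1.49-fold. Thus 2 of the 3 ER sensors, IRE1 and PERK, were higher in PC3, where 33.1 percent of all genes were called higher. ATF6 was not called at 0.25 ± 0.12. PPP1R15A, called between plasmids, was not called between lines, at 0.39 ± 0.18 (edgeR adjusted p = 0.0714). DDIT3 and SHMT2 had line differences of 0.00 ± 0.15 and 0.01 ± 0.12, whose sign changed with scaling.

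**Figure D4:**
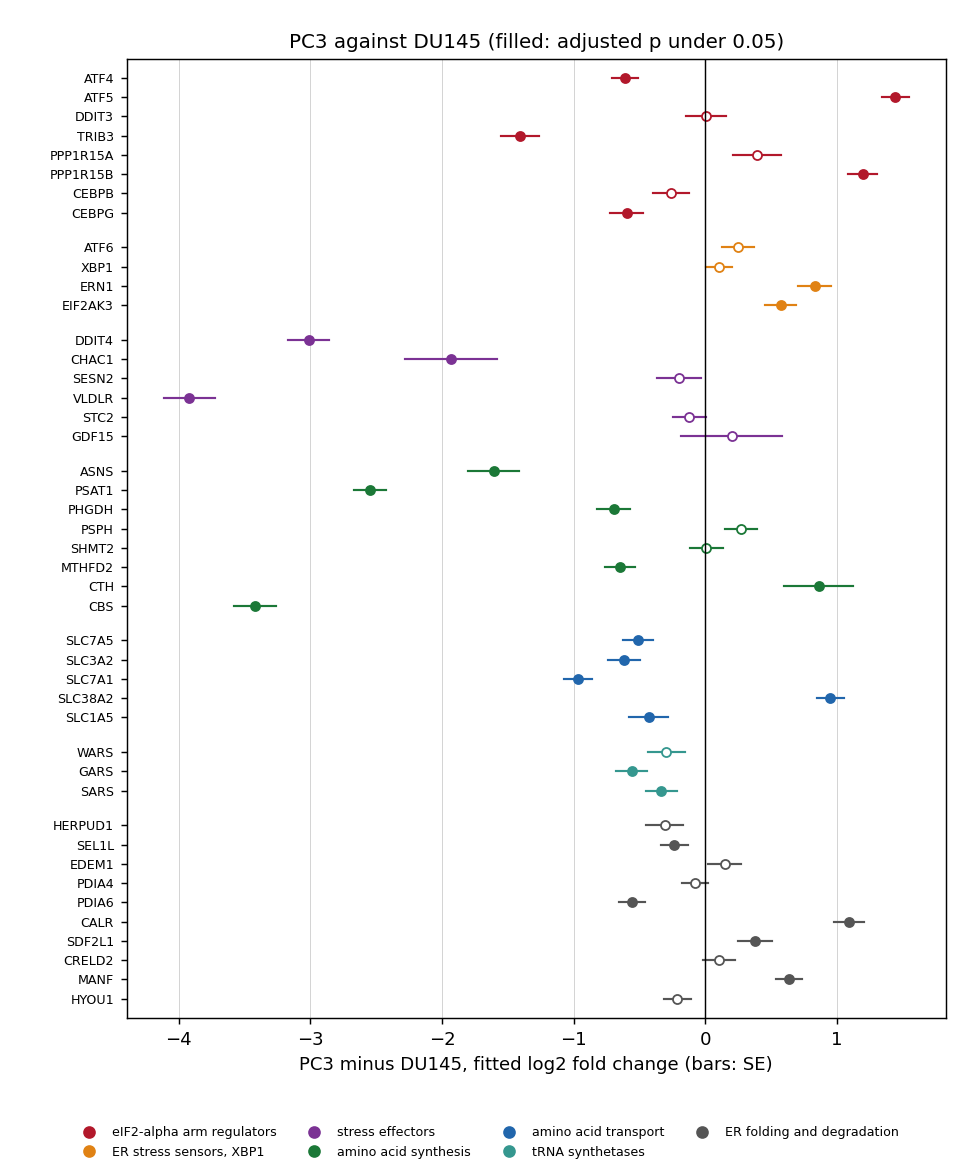
Fitted log2 difference of PC3 minus DU145 for each of the 44 genes, with SE bars, filled where the adjusted p of edgeR's quasi-likelihood test was under 0.05, for 2 libraries per line. VLDLR, CBS and DDIT4 lie farthest to the left, at -3.92, -3.42 and -3.01, and ATF5 farthest to the right, at 1.44.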

How the data were processed

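RNA was measured in 4 libraries, 1 per group. Per the labels, libraries were strand-specific, depleted of ribosomal RNA and tagged with molecular identifiers. The tools named in the submitters' processing notes are edgeR 3.12.1, Subread 1.5.1, featureCounts and Trimmomatic 0.36, with build hg38. Aligner, strand setting and identifier use were not given in the sources used here. Deposited tables hold raw counts by gene, and deposited RPKM equalled counts over gene length and library total for 140844 of 140844 values (relative tolerance 1e-06). Columns named NC were taken as negative control and those named RCAN3 as overexpression.

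The deposited counts were fitted with edgeR 4.0.16 (R 4.3.3) as line plus plasmid, with TMM scaling and filtering by plasmid, tested on simulated data. The fit had 1 residual degree of freedom, a prior of 13.4 and a common coefficient of variation of 0.0972. Ratios within a line carry exact (Clopper-Pearson) 95% intervals, for counting error only, and their log2 values a prior count of 2. DESeq2 1.42.0, limma 3.58.1 (voom) and other settings were alternatives. Named were members called, the 8 highest and 8 lowest by ratio in each line and by line difference among called members, members with opposite ratios, and of the other lists the called genes and otherwise the 2 highest and 2 lowest. Other members are described beside them. The members, lists, rules and tests were chosen with earlier results of these data known.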

Additional observations from a re-analysis of the deposited data

Results flagged for a closer look

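SLC7A5, the leucine carrier, stood out because its circ0003553 library was higher than the control in DU145 and lower in PC3, with both counting intervals excluding 1. The log2 ratio in DU145 minus that in PC3 was 0.47. The difference was not tested, since each line has 1 library per plasmid, and the fitted change across lines was -0.05 ± 0.11 (edgeR, adjusted p = 0.955).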

How the results depend on the processing

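The 1 member called higher between plasmids became 0 with halved counts, legacy dispersions, limma-voom, no cell line block and no filter on low counts. In that order 20, 19, 15, 0 and 15 members were higher at an unadjusted p under 0.05, beside 1008, 907, 899, 24 and 988 genes. The genes tested were 19462 with halved counts, 35211 with no filter and 21731 in the rest of these settings. PPP1R15A had adjusted p values of 0.0721, 0.0871, 0.339, 0.9999 and 0.801 there, and 0.9999 with DESeq2, whose 1 called member was XBP1 (0.0403). Of all genes, 86 were called higher, against 49 by DESeq2, 50 under legacy dispersions, 26 by limma-voom, 0 without the block, 9 without the filter and 44 where genes that share exon bases with another gene were left out. The 15 called lower became 8 with halved counts, 3 with legacy dispersions, 0 with limma-voom, without the block and without the filter, and 4 with those overlapping genes left out. The cause was not tested, except that leaving genes out tests fewer of them. Leaving overlapping genes out kept 27 of 44 members and 10797 of 21731 genes. Then 12 of the 27 members were lower in PC3, in place of 19 of 44. Of the 10797 genes, 3588 were higher and 3452 lower in PC3, in place of 7192 and 7140 of 21731. The members' median log2 ratio in DU145 was 0.49 in place of 0.36, and 1 member was 1.5-fold higher in PC3 in place of 2. Changes near 0 reversed: for PC3 against DU145, DDIT3 was -0.00048 with DESeq2 size factors, -0.024 with halved counts, -0.030 with limma-voom, -0.062 without the block, -0.0042 without the filter and -0.069 with total-count scaling, and SHMT2 -0.0073 with halved counts, -0.026 without the block and -0.064 with total-count scaling. VLDLR between plasmids was -0.0057 with total-count scaling. Calls between lines were lost for CTH with DESeq2, and for SLC1A5, SARS, SEL1L and SDF2L1 under 3 to 5 settings. The cell line was the block that paired the libraries, the labels number no replicates, and no library could be left out, since that leaves no residual degree of freedom. With 1 library per group and 1 residual degree of freedom, p-values rest mostly on a spread shared across genes.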
